A study of Saccharomyces cerevisiae with 8 samples.

Results

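The comparison described here is that of stb3-null with wild-type budding yeast after 3 days in YPD, before any glucose was added back. Its members were the 4 arrays, of 8 in the series, whose sample titles name 3 days in YPD without glucose: stb3-null replicates A and B, and wild-type replicates A and B. YPD is a rich medium with glucose, and cells kept in it for 3 days have used up the sugar and stopped growing. The wild type was BY4742, a haploid laboratory strain of mating type alpha, and the stb3-null strain lacks STB3; the labels name no agent or other allele in either strain. The other 4 arrays came from both strains, stb3-null and wild type, 10 min after 2% glucose was given to such starved cells. They are used here to estimate the spread and to show where the starved difference recurs. The labels say neither how STB3 was removed nor whether the strain is 1 clone, and they do not name BY4742 as its direct parent. No label says whether the arrays of a group were grown as separate cultures, so p-values here describe the spread between arrays alone, which may be technical.

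Stb3 was first found as a partner of Sin3, the scaffold of a histone deacetylase complex that represses transcription. It binds the ribosomal RNA processing element, a short T-rich promoter motif shared by many genes for ribosome biogenesis, the set of factors that process ribosomal RNA and assemble ribosomal subunits. Starved yeast shuts these genes down and fed yeast induces them within minutes, under control of the TOR and protein kinase A pathways, and Stb3 is known as a regulator of that switch.

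Each array gave 1 log2 signal per probe set, and 5343 of 5656 genes passed a filter on low signals set at a log2 signal of 5.80. Array medians at 3 days lay between 7.53 and 7.59. The wild-type arrays differed far more from each other than the stb3-null arrays did. Between replicates, the standard deviation of the log2 difference over genes was 0.261 in stb3-null and 0.577 in wild type, and 5 genes in stb3-null and 410 in wild type lay more than 1 apart. Each stb3-null array was closer to either wild-type array (standard deviation of the difference between 0.363 and 0.547) than the wild-type arrays were to each other. Array weights estimated by limma were 1.66 for each stb3-null array and 0.474 for each wild-type array. Several results that rest on 1 wild-type array are therefore given with and without it, though not every gene named here is. As checks of the labels, MF(ALPHA)1, for the alpha pheromone, ran from 11.09 to 11.57 in stb3-null and from 11.43 to 11.56 in wild type. Of 6 a-cell genes, BAR1, AGA2 and STE2, the last for the receptor of the alpha pheromone, did not pass the filter, with at most 5.31, 5.72 and 6.01 in stb3-null and 5.49, 5.39 and 5.98 in wild type. STE6, for the exporter of the a pheromone, lay between 6.53 and 6.65 in stb3-null and between 6.25 and 6.79 in wild type. The a-pheromone genes MFA1 (6.99 to 7.0 in stb3-null and 7.23 to 7.27 in wild type) and MFA2 (6.6 to 6.76 in stb3-null and 6.99 to 7.03 in wild type) lay above the filter in both strains and lower in stb3-null without overlap, and neither passed the test. URA3, deleted in BY4742, reached at most 4.07 in stb3-null and 4.43 in wild type. Other marker genes of BY4742 were mixed. LYS2 reached at most 3.65 in stb3-null and 3.78 in wild type, and LEU2 at most 5.43 and 5.44, all below the filter level. HIS3 passed the filter, with 8.15 to 8.33 in stb3-null and 7.96 to 8.18 in wild type, so its signal is no check of the label.

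Of the 5343 genes, 2 (0.0374%) passed the test between the strains at 3 days, fitted with limma and called at a Benjamini-Hochberg adjusted p below 0.05. STB3 (YDR169C), the deleted gene, had log2 signals of 3.30 and 2.90 on the stb3-null arrays, against 9.23 and 8.48 on the wild-type arrays. Both signals in stb3-null were under the filter level, so the fitted difference of -5.76 (SE 0.34, limma, adjusted p = 1.13e-04) is a measure of its loss and no fold is given. ATC1 (YDR184C), for a nuclear protein linked to cation homeostasis that binds the bud-site protein Bud6, was the gene that rose. It had 7.77 and 7.92 on the stb3-null arrays, against 6.0 and 6.08 on the wild-type arrays. The groups stood clear of each other, and replicates lay within 0.15 of each other in stb3-null and 0.08 in wild type. ATC1 was 1.80 higher on the log2 scale (SE 0.18, limma, adjusted p = 0.00577), or 3.49-fold. An exact two-sided permutation test of 2 arrays against 2 cannot go below p = 0.3333, so all calls rest on the spread pooled over genes and over the 8 arrays. In bulk RNA a lower signal in every cell and fewer cells that express a gene cannot be told apart.

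The ATC1 call depended on both stb3-null arrays. With stb3-null A left out the difference was 1.88 and the limma adjusted p was 0.151, and with stb3-null B left out they were 1.73 and 0.271. ATC1 passed in 13 of 15 other settings, with adjusted p between 0.00505 and 0.271. STB3 and ATC1 lie on the same chromosome with 19 annotated genes between them. The 4 measured genes nearest to ATC1, picked after its call was seen, gave no such difference: UPS3, for a mitochondrial intermembrane space protein, differed by 0.50, CDC1, for an enzyme of lipid anchor remodelling, by -0.01, SND1, of an endoplasmic reticulum targeting pathway, by -0.11 and CCT6, a chaperonin subunit gene, by -0.14, and none passed.

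Beside STB3 itself, CDC37, a kinase chaperone gene, had 10.77 and 10.54 in stb3-null against 10.29 and 10.11 in wild type, a difference of 0.46 (SE 0.25, limma, adjusted p = 0.648). SEC7, for an exchange factor of Golgi transport, had 9.37 and 9.22 in stb3-null against 9.32 and 8.61 in wild type, a difference of 0.33 (limma, adjusted p = 0.766). With wild-type B left out the SEC7 difference was -0.03. Of the 8 measured genes among the 5 on each side of STB3, none passed, and the median difference was 0.33. Both stb3-null arrays lay above both wild-type arrays for 4 of them (50%, against 20.3% of all genes).

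**Figure D1:**
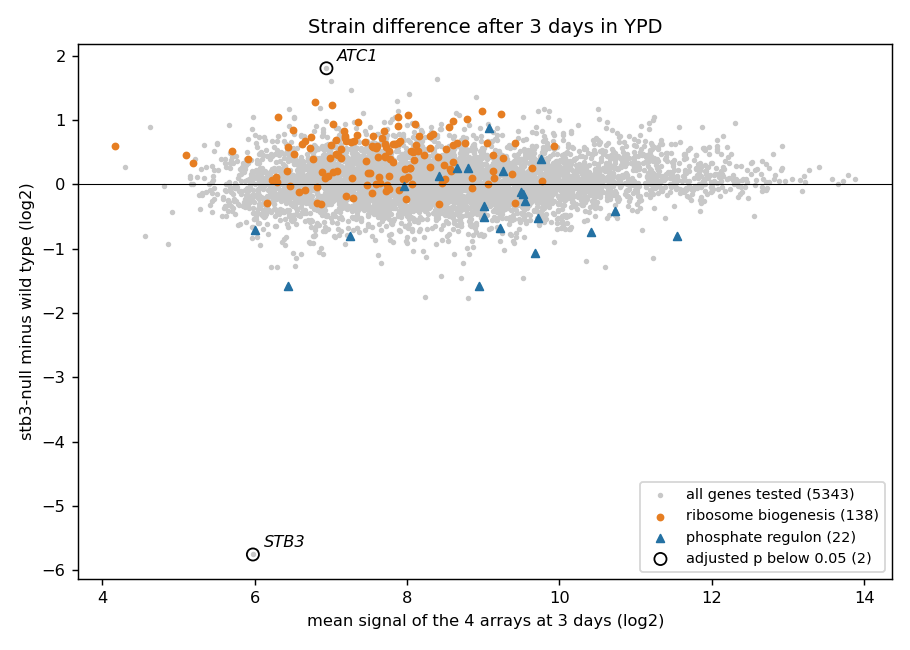
Each point is a gene, with its mean log2 signal over the 4 arrays at 3 days on the x axis and the difference stb3-null minus wild type (log2) on the y axis. Rings mark the 2 genes that passed, STB3 at -5.76 and ATC1 at 1.80; the 138 ribosome biogenesis genes (circles) lie mostly above 0, and 16 of the 22 phosphate regulon genes (triangles) lie below it.

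Over all genes the median difference was 0.03, with quartiles at -0.18 and 0.24. At an unadjusted p below 0.05 there were 275 genes on the higher side and 191 on the lower. Both stb3-null arrays lay above both wild-type arrays for 1082 genes (20.3%) and below both for 905 (16.9%). In all, 34 genes differed by more than 1 on the log2 scale, 8 of them in the ribosome biogenesis list, and 29 genes by less than -1, none of them in that list. The genes named next had the smallest p-values in each direction among genes whose groups did not overlap, and apart from STB3 and ATC1 none passed.

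On the higher side, ribosome biogenesis genes held several of the leading places. NOP14, for a component of the small-subunit processome that cleaves the ribosomal RNA precursor, had 7.38 and 7.48 in stb3-null, against 6.04 and 6.25 in wild type. Its groups lay more than 1 apart and its difference was 1.29 (SE 0.18, limma, adjusted p = 0.0858). UTP15, of the same processome, had 7.61 and 7.65 in stb3-null, against 6.38 and 6.4 in wild type, a difference of 1.24 (limma, adjusted p = 0.134). Both were tight within each strain. UTP13, also of the processome, had 8.53 and 8.29 in stb3-null against 7.13 and 7.59 in wild type. BFR2, a further processome gene, had 6.25 and 6.75 in stb3-null against 5.58 and 5.33 in wild type. RRP17, for an exonuclease of large-subunit ribosomal RNA, had 5.96 and 6.28 in stb3-null against 5.2 and 5.19 in wild type. For BFR2 and RRP17 both wild-type signals lay below the filter level, so their differences of 1.05 and 0.93 are uncertain in size. SNR39, a box C/D small nucleolar RNA that guides methylation of ribosomal RNA, had 7.97 and 8.02 in stb3-null against 6.99 and 6.06 in wild type.

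The remaining higher genes had other roles. GFD2, found as a suppressor of a messenger RNA export helicase, had 9.43 and 8.99 in stb3-null against 7.72 and 7.43 in wild type, the largest difference after ATC1 among those named (1.64, SE 0.31). BUD27, for a prefoldin-like protein used in the assembly of RNA polymerases, had 9.20 on both stb3-null arrays against 8.01 and 8.18 in wild type. FUN30, a chromatin remodeller gene, had 8.59 and 8.45 in stb3-null against 7.58 and 6.88 in wild type. In these 3 genes the lowest stb3-null signal stood above the highest wild-type signal by at least 0.87. RBG2, for a ribosome-associated GTPase, had 8.28 and 8.08 in stb3-null against 7.16 and 7.26 in wild type. MMT1, for a mitochondrial iron transporter, had 7.01 and 7.05 in stb3-null against 6.27 and 5.73 in wild type. Adjusted p-values of the 11 genes that did not pass ran from 0.0858 to 0.280 (limma).

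On the lower side, SPL2 and PHM6 had the smallest p-values after STB3. SPL2, for an inhibitor of low-affinity phosphate transport, had 8.0 and 8.30 in stb3-null against 9.46 and 10.00 in wild type, a difference of -1.58 (SE 0.26, limma, adjusted p = 0.134). PHM6, a phosphate-regulated gene of unknown function, had 5.56 and 5.73 in stb3-null against 6.90 and 7.54 in wild type, a difference of -1.58 (limma, adjusted p = 0.134). The PHM6 signals in stb3-null lay below the filter level, so its size is uncertain. TIS11, for a protein that degrades messenger RNAs of iron-using enzymes, had 7.07 and 7.02 in stb3-null against 8.10 and 8.43 in wild type (-1.22). SLZ1, for a protein of the meiotic messenger RNA methylation complex, had 7.27 and 7.46 in stb3-null against 8.58 and 9.64 in wild type (-1.75). Its wild-type arrays lay more than 1 apart, and its difference was -2.28 without wild-type A and -1.22 without wild-type B. COX3, encoded in the mitochondrial genome for a subunit of cytochrome oxidase, had 6.19 and 5.94 in stb3-null against 7.07 and 7.24 in wild type (-1.09). DSE1, a gene of daughter cells, had 5.55 and 5.75 in stb3-null against 6.73 and 7.14 in wild type (-1.29), with both signals in stb3-null under the filter level.

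The other lower genes were ASR1, for a ubiquitin ligase (-1.04), SHR5, for a subunit of the Ras palmitoyltransferase (-1.14), PTK1, for a kinase of polyamine uptake measured by a probe set whose name marks shared sequence (-1.10), and the uncharacterised YER121W (-1.42) and YJR079W (-0.98). Adjusted p-values of the 11 lower genes that did not pass ran from 0.134 to 0.277 (limma). With wild-type A left out, so that the lone wild-type array was taken to vary like the other groups, NOP14, UTP15, SPL2, PHM6 and SLZ1 all passed, with limma adjusted p = 0.0259, 0.0335, 0.0185, 0.0173 and 0.00516 in that order, among 168 genes in all. With wild-type B left out none of these 5 passed.

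**Figure D2:**
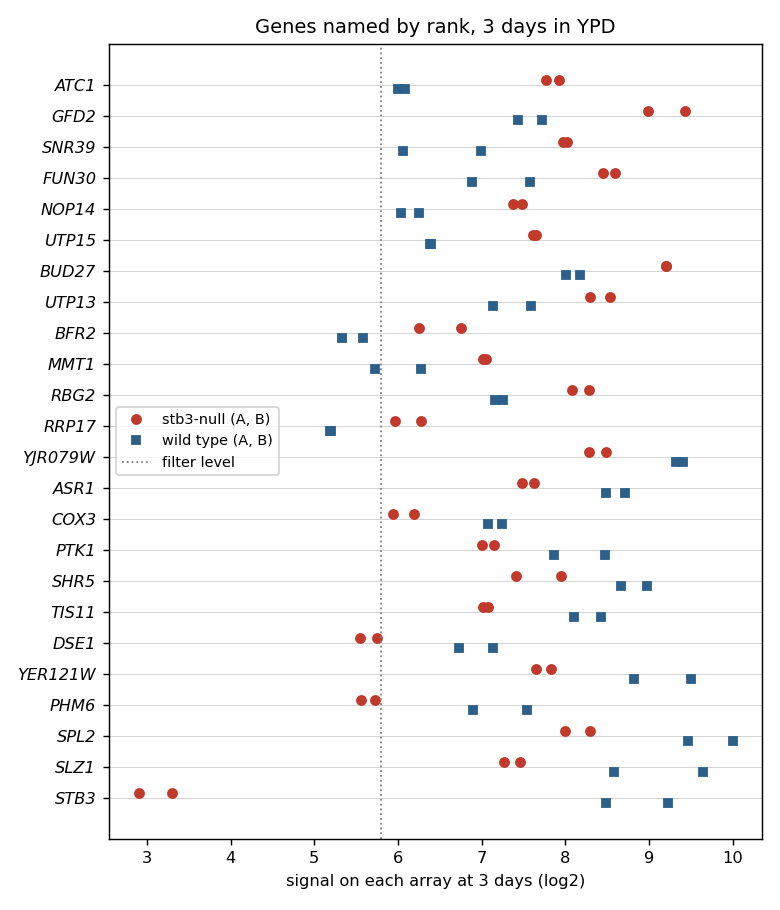
The x axis gives the log2 signal on each array at 3 days for the 24 genes named by rank, listed down the page by their difference, with stb3-null (circles) above wild type (squares) in each row. The groups do not overlap in any row, which the naming rule required; ATC1 has 7.77 and 7.92 in stb3-null and 6.0 and 6.08 in wild type, and the dotted line is the filter level of 5.80.

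Ribosome biogenesis genes as a group lay above wild type in the starved stb3-null cells. Of 139 listed genes 138 passed the filter, and 86 of them (62.3%) had both stb3-null arrays above both wild-type arrays, against 20.3% of all genes; 3 (2.17%) had both below, against 16.9%. The median difference was 0.43, beside 0.03 for all genes. No gene of the list passed after adjustment over all genes; at an unadjusted p below 0.05 there were 51 on the higher side (37.0%, against 5.15% of all genes) and 0 on the lower. After subtraction of each gene's mean over the 4 arrays, the list median was 0.21 on each stb3-null array, against -0.28 on wild-type A and -0.10 on wild-type B. The stb3-null arrays thus matched each other, and the wild-type arrays both lay below them. The difference in medians was 0.38 without wild-type A and 0.46 without wild-type B, and it stayed between 0.32 and 0.46 in 15 other settings. The filter used all 8 arrays, so genes that are low when starved could pass it through their level after glucose. Wild-type means at 3 days were below the filter level for 6 of the 138 genes, and all 6 were among the 86.

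Each of 5 role groups within the list had a positive median. Without overlap, 20.3% of all genes were higher and 16.9% lower. All 13 genes of the t-UTP and UTP-B modules, the parts of the small-subunit processome that bind first to the RNA precursor, were measured. They had a median of 0.65 and 11 (84.6%) on the higher side without overlap, and UTP15 and UTP13 are described above. The other 42 processome and small-subunit assembly genes had a median of 0.34, with 21 higher and 1 lower. Among these, UTP14, for the helicase activator of the processome, had 7.58 and 7.41 in stb3-null against 6.33 and 6.78 in wild type. The 7 measured core protein genes of box C/D and H/ACA small nucleolar particles, which methylate and pseudouridylate ribosomal RNA, had a median of 0.65, with 5 higher (71.4%) and 0 lower. CBF5, for the pseudouridine synthase, had 9.44 and 9.14 in stb3-null against 8.49 and 8.07 in wild type. NOP1, for the methyltransferase fibrillarin, had 8.07 and 8.01 in stb3-null against 7.23 and 7.40 in wild type. These genes were apart in every pairing of arrays, and none passed the test.

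The 18 RNA helicase genes of the pathway had a median of 0.55, with 15 higher (83.3%, against 20.3% of all genes) and 2 lower (11.1%, against 16.9%). DRS1, for a large-subunit helicase, had 8.45 and 8.22 in stb3-null against 7.54 and 7.33 in wild type, and DBP3 had 8.96 and 9.22 in stb3-null against 8.24 and 7.98 in wild type. The 53 large-subunit assembly genes had a median of 0.41, with 33 higher (62.3%) and 0 lower. MAK16, needed for large-subunit precursors, had 6.90 and 6.77 in stb3-null against 5.97 and 5.61 in wild type. RPF2, which brings the 5S particle into the large subunit, had 8.58 and 8.57 in stb3-null against 7.7 and 7.57 in wild type. Medians of the 5 role groups were positive in all 15 other settings, but without wild-type A that of the other small-subunit genes was 0.12 and that of the large-subunit genes 0.26.

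Other genes of protein synthesis lay on the same side. The list of RNA polymerases I and III, which make ribosomal and transfer RNA, held 37 measured genes with a median of 0.23. Without overlap, 17 (45.9%, against 20.3% of all genes) were higher and 3 (8.11%, against 16.9%) lower. RPA49, a polymerase I subunit gene, had 8.42 and 8.12 in stb3-null against 7.16 and 7.43 in wild type. RRN3, for the initiation factor that recruits polymerase I, had 9.24 and 9.21 in stb3-null against 8.57 and 7.71 in wild type. Translation factors (34 genes) had 16 higher (47.1%) and 1 lower (2.94%), with a median of 0.32. In that list NIP1 and PRT1, subunit genes of initiation factor eIF3, differed by 0.86 and 0.73. The 21 measured tRNA synthetase genes had 14 higher (66.7%) and 0 lower, with a median of 0.41, in which YHR020W, for the prolyl enzyme (0.87), and the glutaminyl enzyme gene GLN4 (0.66) had the smallest p-values. No gene of these 3 lists passed.

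Cytosolic ribosomal protein genes had a median of 0.47, and that value rested on 1 wild-type array. Of 80 measured genes, 24 (30.0%, against 20.3% of all genes) had both stb3-null arrays above both wild-type arrays. For 0 genes both lay below (16.9% of all genes), and 79 had a positive difference. Medians after subtraction of each gene's mean were 0.40 and 0.06 on the stb3-null arrays A and B, against -0.70 and 0.24 on the wild-type arrays A and B, so that the groups overlapped. Wild-type A lay below wild-type B for 77 of the 80 genes. Without wild-type A the median difference was -0.03, and without wild-type B it was 0.92. RPS14B and RPS29B, small-subunit protein genes, were low on both wild-type arrays. RPS14B had 10.64 and 10.14 in stb3-null against 9.10 and 9.33 in wild type. RPS29B, measured by a probe set whose name marks shared sequence, had 11.99 and 11.54 in stb3-null against 10.69 and 10.76 in wild type. Both stayed below the threshold for a call (limma, adjusted p = 0.299 and 0.354). Mitochondrial ribosomal proteins, 66 genes, had 5 higher (7.58%, against 20.3% of all genes) and 20 lower (30.3%, against 16.9%) and a median of -0.10. Small nucleolar and nuclear RNAs, 45 genes, had 5 higher (11.1%) and 6 lower (13.3%), both below the shares of all genes, and a median of -0.16. Their medians per array were 0.05 and -0.17 in stb3-null against 0.47 and -0.34 in wild type, and the list difference was 0.29 without wild-type A and -0.47 without wild-type B, so its sign depended on the wild-type array used.

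**Figure D3:**
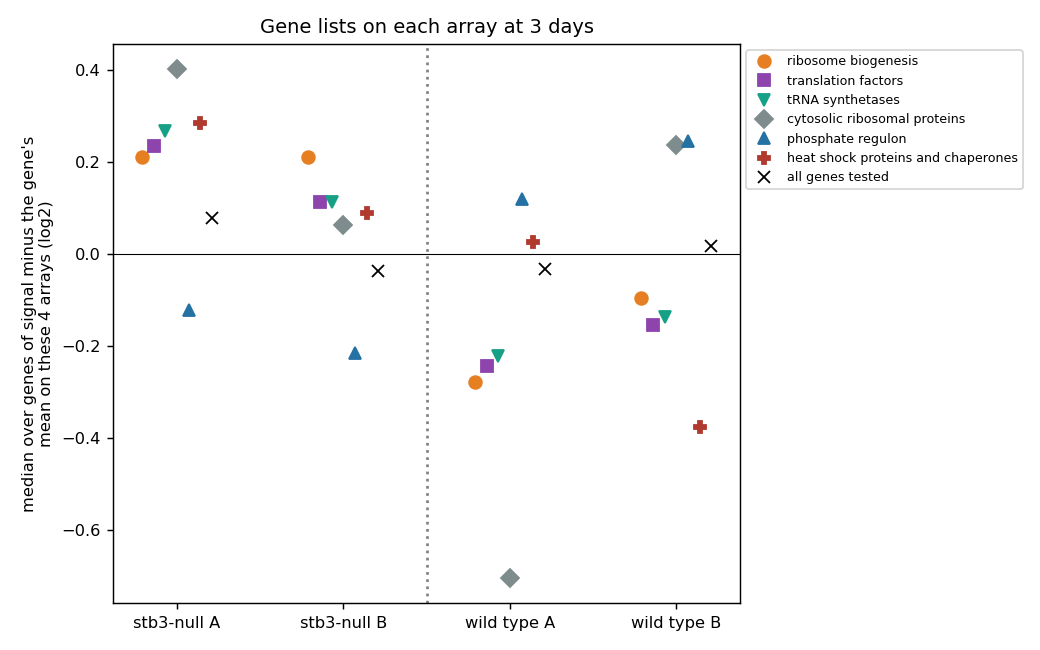
For 6 gene lists and all genes tested, the y axis gives the median over genes of the log2 signal minus the gene's mean over the 4 arrays at 3 days, with the stb3-null arrays left and the wild-type arrays right. Ribosome biogenesis lies at 0.21 on both stb3-null arrays against -0.28 and -0.10 on the wild-type arrays, whereas cytosolic ribosomal proteins lie at -0.70 on wild-type A and 0.24 on wild-type B.

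The phosphate regulon list held genes that the factor Pho4 turns on when phosphate is short. It also held PHO4 itself, other regulators of the pathway and low-affinity transporters, so its counts are not those of Pho4 targets alone. Its genes lay mostly on the lower side. Of 22 measured genes, 12 (54.5%) had both stb3-null arrays below both wild-type arrays, against 16.9% of all genes, and 2 (9.09%, against 20.3%) had both above. The median difference was -0.38, and none passed. At an unadjusted p below 0.05, 7 lay on the lower side (31.8%, against 3.57% of all genes) and 1 on the higher (4.55%, against 5.15%). SPL2 and PHM6, described above, led the list. Further members were picked after their values were seen. PHO5, for the secreted acid phosphatase, had 9.23 and 9.07 in stb3-null against 9.86 and 10.58 in wild type. PHO84, for the high-affinity phosphate transporter, had 11.35 and 10.94 in stb3-null against 11.50 and 12.39 in wild type. PHO4 itself had 8.77 and 8.98 in stb3-null against 9.48 and 9.64 in wild type. PHO87, for a low-affinity transporter, lay on the other side, with 9.61 and 9.40 in stb3-null against 9.09 and 8.18 in wild type. List medians per array were -0.12 and -0.22 in stb3-null against 0.12 and 0.25 in wild type, and the median difference was between -0.43 and -0.27 in 15 other settings.

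Of 39 lists, 12 kept the sign of their median with each of the 4 arrays left out in turn, among them 8 of the 9 with a median of at least 0.3 in size; the exception was the cytosolic ribosomal proteins. Several lists of genes used in the starved state had medians nearer to that of all genes, whereas the beta-oxidation and heat shock lists described below did not. Over all genes, 20.3% were higher and 16.9% lower without overlap. Stationary-phase and respiratory-growth genes (30) had a median of 0.08 with 6 higher and 3 lower, glycogen and trehalose genes (20) a median of 0.14 with 3 and 2, and gluconeogenesis and glyoxylate genes (20) a median of 0.03 with 3 and 3. The respiratory chain (39 genes) had 1 higher (2.56%) and 0 lower and a median of 0.04. The tricarboxylic acid cycle (16 genes) had 2 higher (12.5%) and 0 lower and a median of 0.05. RGI2, a respiratory-growth gene, had 10.02 and 9.90 in stb3-null against 10.55 and 11.93 in wild type (-1.28), and ADH2, for the alcohol dehydrogenase that uses ethanol, had 10.95 and 10.35 in stb3-null against 11.08 and 12.52 in wild type (-1.15). In both, wild-type B stood more than 1 above wild-type A. Without wild-type A their differences were -1.97 and -1.87, both past the threshold (limma, adjusted p = 0.0162 and 0.0329), and without wild-type B they were -0.59 and -0.43 and did not pass.

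Beta-oxidation and peroxisome genes, which burn fatty acids, had the lowest median of the lists with at least 15 measured genes, -0.42. Of 26 genes, 10 (38.5%, against 16.9% of all genes) were lower and 1 (3.85%, against 20.3%) higher. Their medians per array were -0.14 and -0.27 in stb3-null against -0.09 and 0.34 in wild type, and the list difference was -0.48 without wild-type A and -0.13 without wild-type B. PXA1, which encodes part of the importer of long-chain fatty acids into peroxisomes, had 8.99 and 8.90 in stb3-null against 9.24 and 10.46 in wild type. The lower side did not recur after glucose, where the list median was 0.305. There 11 genes (42.3%, against 23.8% of all genes) were higher and 3 (11.5%, against 20.3%) lower without overlap. PXA1 differed by -0.905 at 3 days and by 0.925 after glucose, and passed in neither. Its difference at 3 days was -1.515 without wild-type A and -0.295 without wild-type B. Heat shock proteins and chaperones (37 genes) had a median of 0.33 at 3 days, with 13 higher (35.1%, against 20.3% of all genes) and 0 lower. At an unadjusted p below 0.05 (limma) there were 0 genes of the list on either side. There too wild-type B stood apart, with list medians of 0.29 and 0.09 in stb3-null against 0.03 and -0.38 in wild type, and a list difference of 0.52 without wild-type A and 0.10 without wild-type B. YDJ1, a cytosolic co-chaperone gene, had 11.96 and 11.59 in stb3-null against 11.44 and 10.86 in wild type.

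Among regulators, the 15 measured regulators of ribosome biogenesis other than STB3 had a median of 0.09. Of them 2 (13.3%, against 20.3% of all genes) were higher and 3 (20.0%, against 16.9%) lower. Genes of the Sin3-Rpd3 deacetylase and other Sin3-binding proteins (20) had a median of -0.03 with 4 higher (20.0%) and 2 lower (10.0%). SAP30, for a subunit of that complex, had 7.32 and 7.44 in stb3-null against 6.86 and 6.97 in wild type (0.47, limma, adjusted p = 0.489). TOR and Sch9 signalling (37 genes) had 5 higher (13.5%) and 7 lower (18.9%) with a median of -0.02. Ras and protein kinase A genes (18) had 3 higher (16.7%) and 1 lower (5.56%) with a median of 0.01. Hexose transport and glucose sensing (23 genes) had 4 higher and 4 lower (17.4% each) with a median of -0.01. In that list MIG1, for the glucose repressor, had 7.34 and 7.74 in stb3-null against 8.49 and 8.41 in wild type, and HXT2, for a glucose transporter, had 6.03 and 6.61 in stb3-null against 7.24 and 7.5 in wild type. Neither passed (limma, adjusted p = 0.454 and 0.455).

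**Figure D4:**
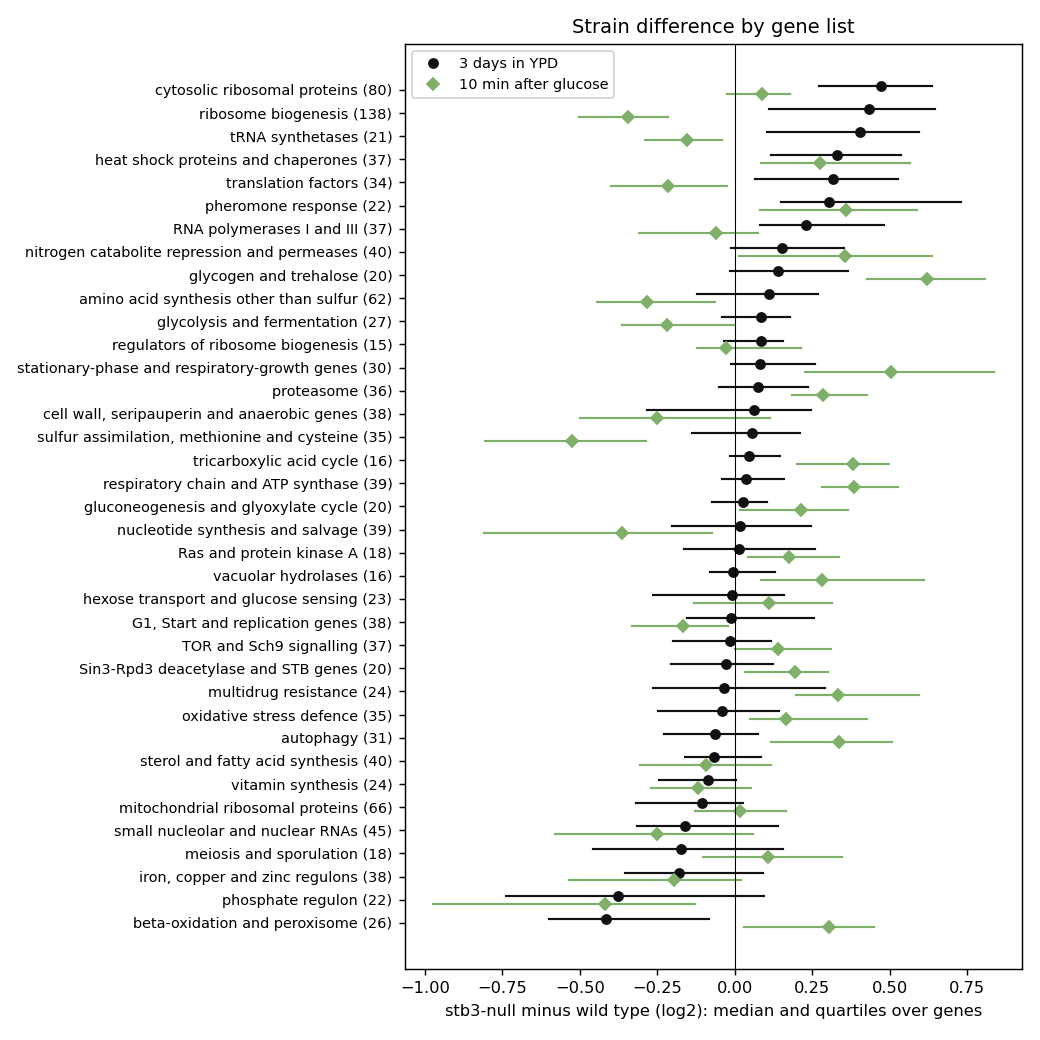
Each row is a gene list with at least 15 measured genes (number in brackets), and the x axis gives the median (symbol) and quartiles (line) over its genes of the difference stb3-null minus wild type (log2), for 3 days in YPD (circles) and 10 min after glucose (diamonds). Ribosome biogenesis has medians of 0.43 at 3 days and -0.34 after glucose, and the phosphate regulon has -0.38 and -0.42.

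The same strains 10 min after glucose, on other arrays, showed which starved differences recurred. There 1 gene (0.0187%), STB3, passed, with a difference of -5.36. Groups did not overlap for 1272 genes on the higher side (23.8%) and 1083 on the lower (20.3%). The wild-type arrays differed more from each other here too. Between replicates after glucose, the standard deviation of the log2 difference was 0.278 in stb3-null and 0.548 in wild type. More than 1 apart lay 28 genes in stb3-null and 367 in wild type. ATC1 had 8.23 and 8.36 in stb3-null against 8.45 and 8.58 in wild type, a difference of -0.22. The change in its strain difference was -2.02 (SE 0.25), which did not pass in the interaction test (limma, adjusted p = 0.0849). Both wild-type arrays were low at 3 days and high after glucose, and the stb3-null arrays were high in both conditions. In that test 0 genes passed (0%), 370 had an unadjusted p below 0.05, and the ATC1 value was the smallest adjusted p.

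Ribosome biogenesis genes lay on the other side after glucose. Of the 138 genes, 81 (58.7%, against 20.3% of all genes) had both stb3-null arrays below both wild-type arrays. For 0 genes both lay above (23.8% of all genes), and the median difference was -0.34. On 47 genes (34.1%) the stb3-null arrays lay above wild type at 3 days and below it after glucose, as did 190 of all 5343 genes (3.56%). Medians per array, on the scale centred on each gene's mean at 3 days, were 1.70 and 1.98 in stb3-null after glucose against 2.03 and 2.43 in wild type after glucose. On the same scale both starved stb3-null arrays were at 0.21, so the higher starved level was small beside the level after glucose in either strain. At an unadjusted p below 0.05 the strain difference was lower after glucose than at 3 days for 67 of the 138 genes (48.6%, against 4.38% of all genes) and higher for 0. NOP14 differed by -0.26 and UTP15 by -0.23 after glucose. Translation factors, with 7 genes (20.6%, against 3.56% of all genes) that were higher at 3 days and lower after glucose, had a median of -0.22 after glucose.

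Phosphate genes lay on the same side in both conditions. After glucose 14 of the 22 genes (63.6%, against 20.3% of all genes) had both stb3-null arrays below both wild-type arrays, and the median was -0.42. Of these genes, 9 of the 22 also lay lower without overlap at 3 days. Of all 5343 genes, 266 lay lower without overlap in both conditions. SPL2 differed by -1.76 and PHM6 by -1.56 after glucose, close to their differences at 3 days. PHO5 differed by -2.10 and PHO89, for the sodium-phosphate cotransporter and also picked after its values were seen, by -2.30 after glucose, against -1.07 and -0.74 at 3 days. After glucose the wild-type arrays A and B had 9.69 and 11.11 for PHO5 and 9.37 and 11.36 for PHO89. Wild-type B was the higher wild-type array for both genes in both conditions, so the sizes depend on it. None of these phosphate genes passed in either condition.

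**Figure D5:**
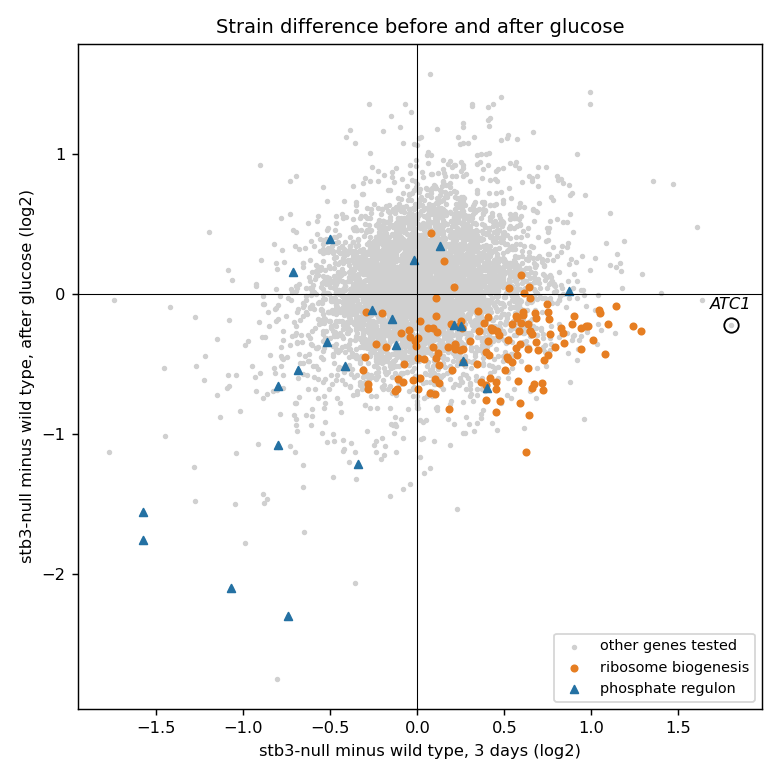
Each point is a gene other than STB3, with the difference stb3-null minus wild type (log2) at 3 days on the x axis and 10 min after glucose on the y axis; the axes share no array. Ribosome biogenesis genes (circles) gather at the lower right, ATC1 (ring) lies at 1.80 and -0.22, and SPL2 and PHM6 lie at the lower left among the phosphate genes (triangles).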

How the data were processed

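Per the labels' protocols, total RNA was labelled with biotin and hybridised to Affymetrix arrays; MAS5 is named per the submitters' processing notes, and no source used here states how arrays were scaled. The deposited log2 signals of 9275 probe sets were used as they were, with the base read from the values. Probe sets with several genes (328) or none listed (2443) were left out, and the brightest stood for a gene with several. The filter kept genes whose antilog signal averaged over 8 arrays was at least 10% of the mean 2% trimmed mean. limma 3.58.1 in R 4.3.3 fitted a mean per group with a mean-variance trend (4 residual and 5.56 prior degrees of freedom), two-sided, with Benjamini-Hochberg adjustment over 5343 genes. The fit was tried on simulated data with the same spread in every group, so that trial does not cover the unequal spread of the strains seen here. Comparisons were stb3-null minus wild type at 3 days, after glucose, and their interaction.

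Named were STB3 and its neighbours, 12 genes a direction by size among called genes without overlap (filled up by p), and the 2 members of a list with the smallest p. Members and lists were chosen with earlier results of these data known, so lists carry no test; ribosomal protein lists were drawn by name, without RPP1 and MRP8. Alternatives covered scaling, filter, pseudocount, probe sets, arrays fitted, weights, trend, replicate block and each array left out. Promoter motifs were not analysed here.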

Additional observations from a re-analysis of the deposited data

Results flagged for a closer look

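One probe set with no gene listed in the annotation used here had log2 signals of 11.90 and 12.06 on the stb3-null arrays at 3 days, against 4.42 and 3.14 on the wild-type arrays, a difference of 8.20 (SE 0.39, limma fit over all probe sets above the filter, adjusted p = 3.14e-05). It stood out because it lies outside the genes compared and is high on the stb3-null arrays alone: after glucose it had 12.16 and 12.73 in stb3-null against 3.98 and 3.47 in wild type. What it measures is not identified here.

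For 8 gene lists, both stb3-null arrays lay on one side of both wild-type arrays at 3 days and on the other side after glucose, in the list medians per array; the differences between conditions were not tested for lists. The medians at 3 days and after glucose were 0.4325 and -0.345 for ribosome biogenesis, 0.3175 and -0.215 for translation factors, and -0.035 and 0.3325 for multidrug resistance. Within ribosome biogenesis they were 0.645 and -0.355 for the t-UTP and UTP-B modules, 0.345 and -0.3825 for other small-subunit factors, 0.645 and -0.24 for small nucleolar particle proteins, 0.5475 and -0.35 for RNA helicases, and 0.405 and -0.33 for large-subunit factors. The value at 3 days for multidrug resistance, -0.035, is close to that of all genes.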

How the results depend on the processing

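The number of genes that passed at 3 days was 2 with every other scaling, fit, weight and probe set choice run, with the replicate block too (2 genes). It was 1 with the filter at 40%, which removed STB3, and 3 with no filter. No filter added ARR2, for an arsenate reductase and named after its value was seen, at 1.59 (limma, adjusted p = 0.0476). ARR2 had 6.05 and 5.94 in stb3-null against 4.21 and 4.6 in wild type, with the wild-type signals below the filter level. Leaving out 1 array gave 1 to 168 genes: 1 without either stb3-null array, 2 without wild-type B and 168 without wild-type A, 123 higher and 45 lower, where 2.9% of ribosome biogenesis genes passed against 3.14% of all genes; the cause was not tested. After glucose 1 gene passed, 0 with the filter at 40% and 4 with array weights, and 1 to 56 with 1 array left out (alternatives added after seeing the data; 56 without wild-type glucose A). In the interaction 0 passed, and 0 to 5 with 1 array left out (5 without wild-type A at 3 days). The ribosome biogenesis median was 0.3155 with a pseudocount, and the count of its genes without overlap on the higher side was 78 to 86 with other processing; that of phosphate genes on the lower side was 9 to 14. With 1 array left out, where fewer pairings must hold, these counts were 92 to 122 and 12 to 15. The meiosis median of -0.17 was 0.06 with the filter at 40%. With 1 array left out, medians ran from -0.355 to 0.09 for meiosis, from -0.0325 to 0.30 for glycogen and trehalose, from -0.0075 to 0.20 for the proteasome, from -0.06 to 0.135 for regulators of ribosome biogenesis, from -0.03 to 0.9225 for cytosolic ribosomal proteins and from -0.03 to 0.2625 for nitrogen catabolite repression, and SEC7 ran from -0.025 to 0.685. Replicates share only a letter: over the 6 pairs of groups, deviations from the group means correlated at -0.183 (both strains at 3 days), -0.168, 0.128, 0.129, 0.139 and 0.224 (wild type at 3 days and after glucose), so not every pair was positive. Promoter motif shares were not run. The number of arrays, 2 per group, limits the precision, and signals below 5.80 give uncertain sizes.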

Other observations

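A list of 10 genes that daughter cells express, many of them to part from their mothers, was put together after its values were seen, so its values are a description only. At 3 days 7 of the 10 had both stb3-null arrays below both wild-type arrays (16.9% of all genes did), with a median of -0.79, and after glucose 9 did (20.3% of all genes), with a median of -0.90. DSE2, for a daughter-cell wall glucanase, had 9.07 and 8.84 in stb3-null against 9.51 and 10.16 in wild type. EGT2, for a cell wall protein of daughter cells, had 8.12 and 7.93 in stb3-null against 8.64 and 9.14 in wild type. DSE4, for another glucanase, had 7.32 and 7.36 in stb3-null against 8.13 and 8.28 in wild type. CTS1, the chitinase that opens the septum, had 11.06 and 10.40 in stb3-null against 11.07 and 11.80 in wild type. AMN1 and ASH1, which act in daughter nuclei, differed by -0.01 and -0.20. Wild-type A lay below wild-type B for 9 of the 10 genes at 3 days, and the list median was not computed with an array left out.

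Genes of the mitochondrial genome, also listed after their values were seen, had negative differences in 9 of 10 cases at 3 days, with a median of -0.38, and 3 of the 10 were lower without overlap, against 16.9% of all genes. COB, for cytochrome b, had 6.97 and 6.32 in stb3-null against 7.31 and 7.63 in wild type. After glucose the median of the 10 genes was -0.08. At 3 days wild-type A lay below wild-type B for 8 of the 10 genes, and here too no median was computed with an array left out.

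Pheromone response genes (22) had 6 higher (27.3%, against 20.3% of all genes) and 1 lower without overlap at 3 days, with a median of 0.31. Their medians per array overlapped, at 0.34 and -0.03 in stb3-null against 0.11 and -0.47 in wild type, and the list difference was 0.59 without wild-type A and 0.06 without wild-type B. STE12, for the transcription factor of that response, had 7.54 and 7.6 in stb3-null against 6.92 and 6.66 in wild type. FIG2, for a mating adhesin, had 7.15 and 6.81 in stb3-null against 6.48 and 5.98 in wild type. Neither passed, and wild-type A lay below wild-type B for 2 of the 22 genes.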
